A study of Rattus norvegicus with 3 samples.

Results

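The core circadian clock genes of the rat kidney were followed in animals given γ-aminobutyric acid (GABA) in their drinking water. The members were the activators Bmal1 (also written Arntl) and Clock, the repressors Per1, Per2, Per3 and Cry1, the receptors Nr1d1 and Nr1d2, and the output factors Dbp and Tef. A probe was taken as a member where it was not a control probe and its RefSeq transcript record belonged to one of these genes. All 10 genes had a probe, among 26785 gene names on the array, and 16 probes on 34 spots of each array stood for them. A gene was tested where 1 of its probes gave a signal that exceeded background clearly on every array with the same dye. This held for 6 of the 10 members and for 14183 genes in all. Of these genes 8912 had a gene symbol, and the others were counted under the name that their probe carries.

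Male Sprague-Dawley rats, 5 weeks old at purchase and acclimated for 1 week, received 200 ppm GABA in water (the G200 group) or water without it (the control group). RNA from kidney, labelled as a region without tumour, was compared on 3 Agilent arrays with 2 colours, with control RNA in Cy3 (green) and G200 RNA in Cy5 (red) on each. The labels give 3 rats per group. The paper gives more rats per group than the labels do, and whether the control RNA was a pool was not tested. The dyes were exchanged on no array, all 3 arrays lay on 1 slide read in 1 scan, and so a difference between the dyes and an effect of GABA cannot be told apart by the design. The hour at which the kidneys were taken is not given in the sources used here. Values are log2 ratios of G200 over control, after correction for background and loess normalization between the dyes, so a value above 0 means a higher level in G200.

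In mammals the clock is a feedback loop of transcription factors that runs in nearly every cell. Clock and Bmal1 bind E-box motifs as a pair and switch on the Per and Cry genes, whose proteins then inhibit that pair, and the Nr1d1 and Nr1d2 genes, whose products (the REV-ERB receptors) repress Bmal1 through ROR elements. Dbp and Tef are PAR bZIP factors that carry the rhythm to other genes through D-box motifs. In the kidney this machinery is known for daily rhythms in the handling of sodium and water and for its link to blood pressure.

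The promoters of the 3 members that passed the test are printed first, because the comparison of the arms turns on them. Promoter entries of RefSeq on the build GRCr8 were found for 9 of the 10 members, with 2 entries each for Clock and Nr1d1, and none was matched for Cry1. Each sequence is the 250 bases before the annotated start, 5′ to 3′ on the plus strand, and capitals mark a match to a motif searched on both strands. The motifs were the E-box CACGTG, the related CACGTT, the D-box letters TTATGTAA and TTATGCAA, and the ROR element letters TAGGTCA and TGGGTCA.
Bmal1 (chr1:176766078-176766327): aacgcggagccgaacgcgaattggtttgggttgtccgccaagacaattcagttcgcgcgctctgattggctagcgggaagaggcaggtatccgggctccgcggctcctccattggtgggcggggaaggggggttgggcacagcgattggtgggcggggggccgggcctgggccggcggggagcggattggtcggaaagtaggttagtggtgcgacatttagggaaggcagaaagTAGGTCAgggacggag
Tef (chr7:115206577-115206826): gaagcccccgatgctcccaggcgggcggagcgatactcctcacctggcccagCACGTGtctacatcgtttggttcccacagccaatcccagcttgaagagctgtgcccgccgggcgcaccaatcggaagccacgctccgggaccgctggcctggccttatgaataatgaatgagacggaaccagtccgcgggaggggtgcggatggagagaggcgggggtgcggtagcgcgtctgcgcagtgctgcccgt
Dbp (chr1:105312006-105312255): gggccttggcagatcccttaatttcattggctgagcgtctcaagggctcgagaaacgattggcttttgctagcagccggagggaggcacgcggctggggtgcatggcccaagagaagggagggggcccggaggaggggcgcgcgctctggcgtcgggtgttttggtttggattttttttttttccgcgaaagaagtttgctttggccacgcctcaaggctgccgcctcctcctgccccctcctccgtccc
The Bmal1 window held TAGGTCA at 16 to 10 bases before the start, letters found in 2.26% of the 33469 promoters of this length. The Tef window held CACGTG at 198 to 193 bases before the start, a motif of 5.59% of all promoters. The Dbp window held none of the letters searched, which says nothing of motifs elsewhere in the gene. Among the other members, Per2 held CACGTT at 62 to 57 and TTATGTAA at 192 to 185 bases before its start, against 4.07% and 0.828% of all promoters. Nr1d1 held CACGTG at 191 to 186 bases before one of its starts, and CACGTT on the opposite strand at 174 to 169 bases before the other. In all, 4 of the 9 members held at least 1 match, and 15.8% of all promoters did. The first count is per gene, over 11 promoter entries, and the second is per entry, so the 2 are not like shares. The array measures transcript levels and not binding, so these matches are a description only.

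Of the 6 tested members, 2 were higher in G200 (Bmal1 and Tef) and 1 was lower (Dbp) at an adjusted p under 0.05 in limma's test across all genes. The background was high, since 37.5% of all 14183 genes were called by this test (11.5% in the higher direction and 25.9% in the lower). Against this share, 3 of 6 tested or 3 of 10 listed genes is not a result about the clock genes as a group. These counts leaned on single arrays: without array 3, 167 genes were called higher and 1384 lower and no member was called, and without array 1, 863 genes and 1 member were called higher. No tested member reached a 2-fold difference. Each of the 6 probes that stood for a tested member was well above background in both colours on all 3 arrays, so none entered through 1 group alone. The members had been chosen with earlier results of these arrays known, and no test was made over the list.

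The 3 green channels differed little from each other. Over 1390 probes with at least 5 spots, the variance between arrays was 1.14 times that between replicate spots at the median, and 21 probes differed after adjustment. In red the median was 14.7 times and 1124 probes differed. The green channels were therefore counted as 1 control RNA, and the test of the ratio against 0 leaves out the spread between control rats. Whether the arrays of 1 group came from separate animals rests on the labels, and the p-values measure the spread between these arrays.

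**Figure D1:**
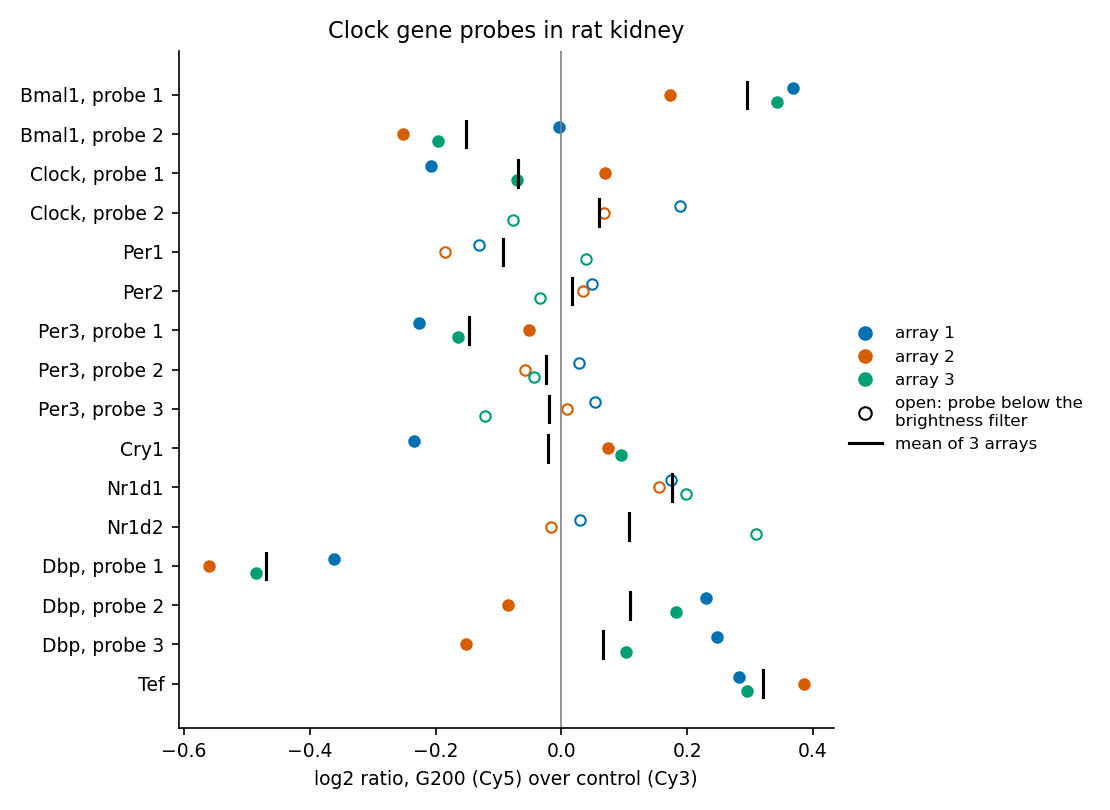
Log2 ratio of G200 over control (horizontal axis) for each of the 16 clock gene probes, with 1 point per array and a line at the mean of 3 arrays. Filled points are probes past the brightness filter. Tef lies above 0 on every array, while the probes of Dbp and of Bmal1 lie on both sides of 0 with loess.

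Bmal1, the partner of Clock in the activating pair, is the first of the activators. By its brightest probe, the normalized log2 intensity in control RNA was 7.14, 7.02 and 6.96 on arrays 1, 2 and 3, and in G200 RNA 7.51, 7.195 and 7.30. The G200 value was the higher one on each array, and the lowest G200 value lay above the highest control value. The log2 ratios were 0.37, 0.17 and 0.34, a mean of 0.29 ± 0.11 (SD, 3 arrays) or 1.23-fold, with a 95% interval of 1.09-fold to 1.38-fold (limma, adjusted p = 0.0233). The second Bmal1 probe of the same transcript record gave -0.0045, -0.25 and -0.20, a mean of -0.15 ± 0.13 (adjusted p = 0.164 with each probe fitted as a feature of its own, where 36.5% of the 15651 probes were called). On array 2 the red spot of this second probe read 58 units beside a local background of 50 units, which was not well above background. It was well above background on 3 arrays in control RNA but on 2 in G200 RNA, and so passed the filter only through the group in which it was higher. With the mean of both probes, Bmal1 had a log2 ratio of 0.07 (limma, adjusted p = 0.460) and was not called. Since that mean includes the second probe, it decides nothing about the call. Without array 1 or without array 3 the call was also lost, with ratios of 0.26 and 0.27 and adjusted p-values of 0.0840 and 0.157. It was lost as well without the replicate block (limma, adjusted p = 0.0623). In the methods' test it was lost on ratios after adjustment (unadjusted p = 0.0412, adjusted p = 0.149). On channels it was not reached even without adjustment (unadjusted p = 0.0650, adjusted p = 0.190).

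Clock is the partner of Bmal1 in the activating pair. Its brightest probe read 6.49, 6.65 and 6.86 in control RNA and 6.28, 6.72 and 6.79 in G200 RNA. The ranges overlapped, and array 2 had the sign opposite to arrays 1 and 3. The log2 ratios of -0.21, 0.07 and -0.07 gave a mean of -0.07 ± 0.14, with a 95% interval of 0.836-fold to 1.09-fold (limma, adjusted p = 0.511). The second Clock probe was not well above background in either colour on any array, so no fold is given.

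The Per proteins join with Cry proteins to inhibit the activating pair. Per3 was the only Per gene past the filter. Its control values were 6.34, 6.34 and 6.36 and its G200 values 6.11, 6.29 and 6.20, so each G200 value was below each control value. The log2 ratios were -0.23, -0.05 and -0.16, a mean of -0.15 ± 0.09 with a 95% interval of 0.803-fold to 1.02-fold (limma, adjusted p = 0.140), and the difference did not pass the test. The ratio was -0.44 with a normexp offset of 0 and -0.42 with the deposited log ratio, with an adjusted p of 0.0508 in both (limma). The other two Per3 probes were not well above background on any array.

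Cry1 is a strong repressor within the complex of Per and Cry proteins. It read 6.80, 6.80 and 6.79 in control RNA, an SD of 0.008, and 6.57, 6.88 and 6.88 in G200 RNA. Array 1 alone was low, and the mean ratio of -0.02 ± 0.18 (limma, adjusted p = 0.859) turned to 0.08 without it.

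Per2 was printed on 10 spots of each array but failed the filter. In green, the number of its spots well above background was 4, 8 and 8 on arrays 1, 2 and 3, and in red it was 7, 2 and 10. Since part of the spots was not well above background, no fold is given for Per2. Per1, which responds quickly to light and to hormones in many tissues, was not well above background in either colour on any array. Its green spot read 47, 48 and 46.5 units beside a local background of 24, 24.5 and 29, and its red spot 61, 54 and 53.5 beside 54, 51 and 45.5. No fold is given for Per1.

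**Figure D2:**
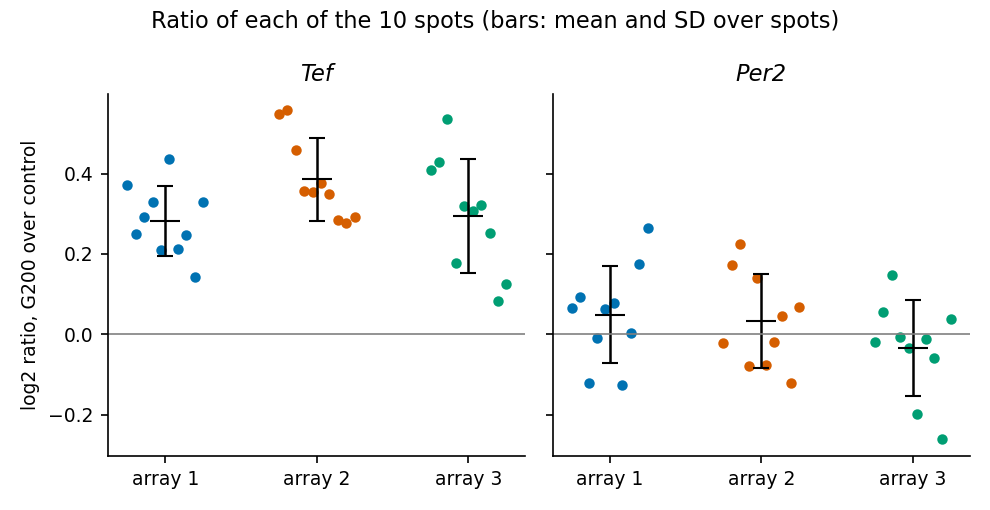
Log2 ratio of G200 over control (vertical axis) for each of the 10 spots of Tef and of Per2 on the 3 arrays, with bars for the mean and SD over spots. All Tef spots are above 0, and Per2 spots, of which part was not well above background, lie on both sides of it.

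The REV-ERB receptors close a second loop on Bmal1. Nr1d1 was not well above background in control RNA on any array and was well above it in G200 RNA on 2 of 3 arrays. Its green spot read 46, 47 and 46 units against a local background of 24, 23 and 29, and its red spot 82, 62 and 70 units against 50.5, 40 and 53. On array 2 neither colour was well above background, so no fold is given for Nr1d1. Nr1d2 showed the same pattern of detection, with green readings of 45, 46 and 41 units beside 23, 26 and 26.5, and red readings of 72, 60 and 73 units beside 55, 53 and 53.5. No fold is given for Nr1d2 either.

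Dbp, an output factor driven directly by Clock and Bmal1 through E-boxes, had with loess the largest ratio in size of the 6 tested members by its brightest probe. With the deposited log ratio or with median centring the ratios of Bmal1 and Tef were larger in size. Control values were 10.2, 10.3 and 10.2 and G200 values 9.86, 9.76 and 9.73. Every G200 value was below every control reading, where the control readings were counted as 1 RNA. The log2 ratios of -0.36, -0.56 and -0.49 gave a mean of -0.47 ± 0.10, or 0.722-fold with a 95% interval of 0.640-fold to 0.814-fold (limma, adjusted p = 0.00521). Without array 3 the ratio was -0.46 and the adjusted p 0.0571 (limma). In the methods' test the call was lost after adjustment on ratios (adjusted p = 0.125) but not on channels. The unadjusted p-values of that test were 0.0150 and 0.00091. The other two Dbp probes carried the same transcript record and were also well above background in both colours on all 3 arrays, yet neither fell. The second probe gave 0.23, -0.09 and 0.18 (mean 0.11 ± 0.17, adjusted p = 0.345 with each probe fitted as a feature of its own). The third gave 0.25, -0.15 and 0.10 (mean 0.07 ± 0.20, adjusted p = 0.594). On each array the brightest probe lay below the mean of the other two, by -0.60, -0.44 and -0.63, and this gap was negative on all 3 arrays under the other dye scalings too, where median centring and no normalization give the same gap by construction. The mean of the 3 probes was -0.10 (limma, adjusted p = 0.366), so the lower value was that of 1 probe and not of the 3 probes together. Of 1342 genes with several probes past the filter, 37.1% had probes in both directions, and 9.31% spanned a wider range than Dbp. Where the probes lie in the transcript was not tested, since probe sequences were not used here.

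Tef, the second PAR bZIP factor, was the most uniform of the called members. Its probe was printed on 10 spots, all of them well above background in both colours on every array. Control values were 7.65, 7.67 and 7.70 and G200 values 7.93, 8.06 and 7.997. The lowest G200 value lay above the highest control reading. The SD was 0.03 among the control readings, counted as 1 RNA, and 0.06 among the G200 values. The log2 ratios were 0.28, 0.39 and 0.30, a mean of 0.32 ± 0.06 or 1.25-fold, with a 95% interval of 1.12-fold to 1.40-fold (limma, adjusted p = 0.0133). Over the 10 spots the SE was 0.027, 0.033 and 0.045 on arrays 1, 2 and 3, each below the SD of 0.06 between arrays. All 10 spots were above 0 on each array. Without array 3 the ratio was 0.33 and the adjusted p 0.0945 (limma). In the methods' test the call was lost only after adjustment (adjusted p = 0.124 on ratios and 0.0780 on channels). The unadjusted p-values of that test were 0.0102 and 0.00635.

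**Figure D3:**
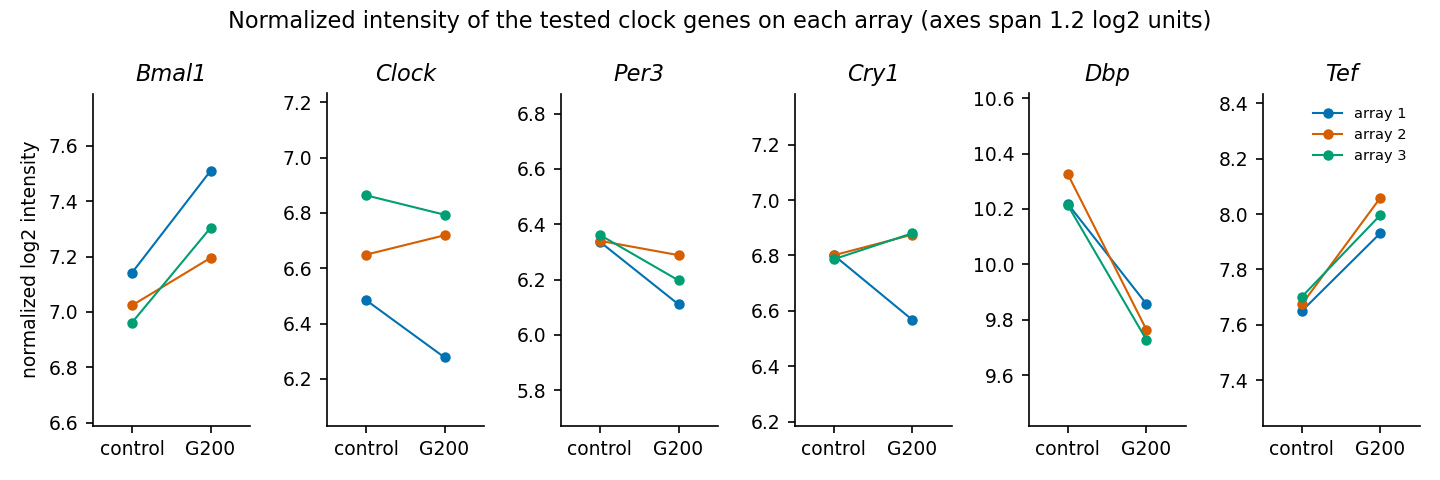
Normalized log2 intensity (vertical axis) of the 6 tested clock genes in control and G200 RNA, with 1 line per array and an axis of equal span for each gene. With loess, lines slope up on all arrays for Bmal1 and Tef, down on all arrays for Dbp and Per3 (whose means are above 0 with no normalization), and both ways for Clock and Cry1.

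The arms of the clock were compared on each array by the mean log2 ratio of the tested genes. The activators (Bmal1 and Clock) gave 0.08, 0.12 and 0.14, a mean of 0.11 ± 0.03. The repressors (Per3 and Cry1) gave -0.23, 0.01 and -0.04, a mean of -0.08 ± 0.13. The outputs (Dbp and Tef) gave -0.04, -0.09 and -0.10, a mean of -0.07 ± 0.03 that joins a gene that rose with another whose brightest probe was lower. Repressors and outputs together lay below the activators by -0.22, -0.16 and -0.20, a gap of -0.19 ± 0.03 over the 3 arrays. The gap was not tested. It was -0.30 with a normexp offset of 0, -0.34 with the deposited log ratio and -0.09 with median centring or no normalization, which give the same gap by construction. Without array 2, where 9 members passed the filter on the other arrays, it was -0.11. Nr1d1 and Nr1d2 then entered only through G200 RNA, the group in which they were higher. Per2 also entered only through G200 RNA, since 4 of its 10 green spots were well above background on array 1. The genes tested on all 3 arrays gave -0.22 and -0.20 on arrays 1 and 3, so the value of -0.11 includes the change of members. The gap also depended on the choice of probe. With the second or the third Dbp probe it was -0.05 or -0.06. With the dimmer Bmal1 probe it was 0.03, but this probe was not well above background in G200 RNA on array 2. That value therefore carries no weight.

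**Figure D4:**
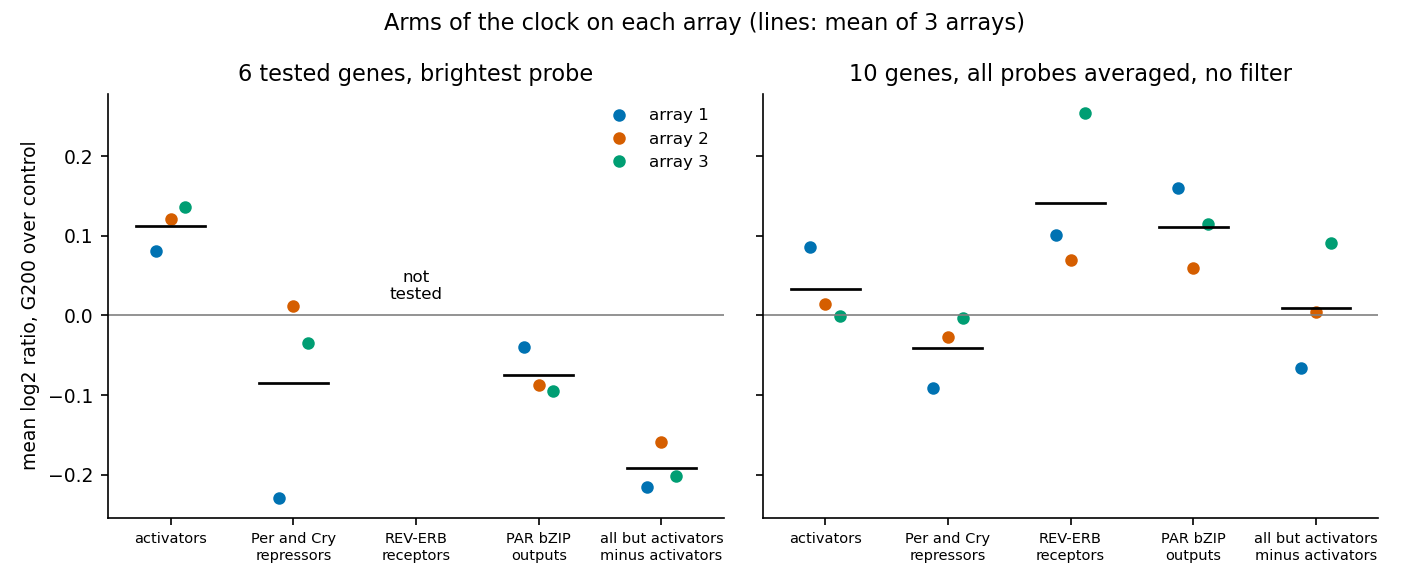
Mean log2 ratio of G200 over control (vertical axis) for the arms of the clock, with 1 point per array and a line at the mean of 3 arrays. Left, the 6 tested genes by their brightest probe, where the gap is negative on all arrays. Right, all 16 probes of the 10 genes, of which 9 passed the filter and the others lay near background, so these values do not measure the gap.

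The scaling between the dyes moved the whole array and with it the direction of the members. With loess, 1638 genes were called higher and 3678 lower. Median centring gave 4990 and 1246, and leaving the dyes without normalization gave 8010 and 304. The all-gene median was -0.05 with loess, 0.27 with median centring and 0.62 with neither. By its brightest probe Bmal1 was above 0 in all 5 settings and exceeded the median of all genes by 0.34 to 0.70. Its second probe, at -0.15 with loess, -0.24 with median centring and 0.11 with no normalization, lay below that median in all 5. In G200 RNA this second probe was not well above background on array 2, so its means over 3 arrays carry no weight. On arrays 1 and 3 it was well above background in both colours. There it gave -0.0045 and -0.20 with loess, against 0.37 and 0.34 by the brightest probe. The ratio of Tef exceeded the median by 0.37 to 0.54. Dbp, at 0.22 with median centring and 0.57 with no normalization, turned its sign, and in both it lay only 0.05 below the median of all genes (a difference of -0.05). With loess or the deposited log ratio Dbp lay at -0.42 to -0.43 from that median. Per3 differed from the median by -0.10 in the main setting and by -0.50 with median centring. Clock and Cry1 turned their signs with median centring, to 0.02 and 0.16, and neither was called there. With no normalization Cry1 was at 0.51 (limma, adjusted p = 0.0460), below the all-gene median.

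**Figure D5:**
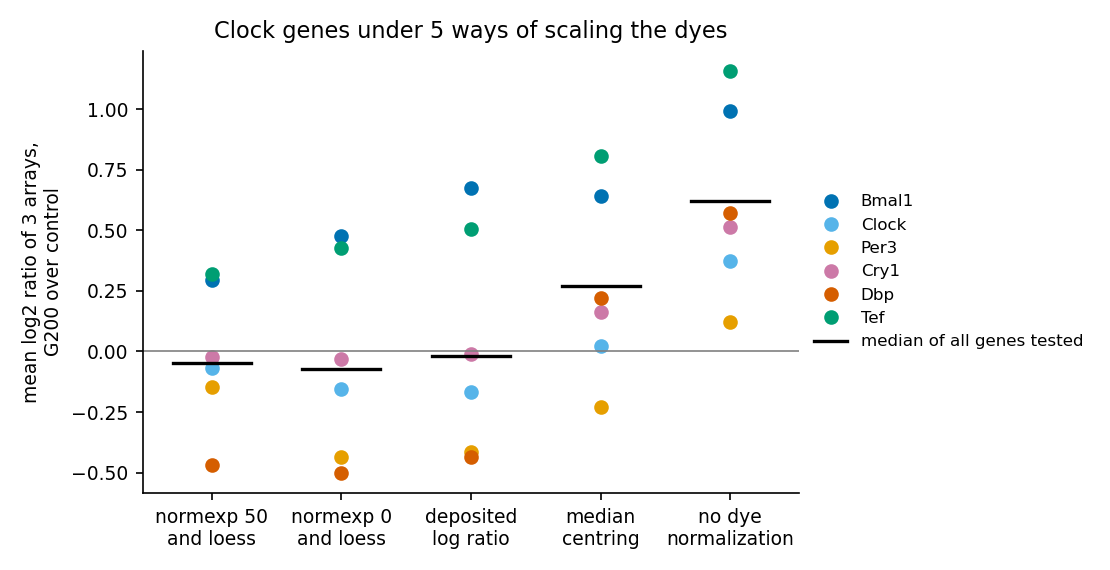
Mean log2 ratio of 3 arrays (vertical axis) for the 6 tested clock genes under 5 ways of scaling the dyes, with a black line at the median of all genes tested. By their brightest probes, Bmal1 and Tef stay above the line in every setting, and Dbp moves from far below the line to just under it.

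Genes around the core loop were read from a list of 19 accessory factors, 13 of them with a probe and 10 tested. None was called higher and 3 were called lower, and 5 of the 10 ratios were above 0, with a median of -0.04 against -0.05 over all genes, of which 11.5% were called higher and 25.9% lower. Btrc, a ubiquitin ligase subunit that marks Per proteins for destruction, gave -0.73, -0.27 and -0.59 (limma, adjusted p = 0.0104), and with no normalization between the dyes a ratio of 0.19, at -0.43 from the all-gene median. Npas2, a relative of Clock that can replace it, gave -0.36, -0.25 and -0.48 (limma, adjusted p = 0.0128), and with no normalization a ratio of 0.07, at -0.55 from that median. These Npas2 values are of its brightest probe, and its other probe past the filter had a mean of only -0.06. With the mean of its 2 probes the ratio was -0.21 (limma, adjusted p = 0.0445). Cry2, the sister of Cry1, was well above background on 3 arrays in control RNA but on 2 in G200 RNA. It passed the filter only through the group in which it was higher, so its call (limma, adjusted p = 0.0118) carries no weight, and it was not tested where both colours had to pass. Without array 3 none of the 3 was called, at -0.50 for Btrc, -0.30 for Npas2 and -0.34 for Cry2 (limma, adjusted p = 0.0839, 0.113 and 0.0931). With median centring Btrc and Npas2 lost their calls, at -0.16 and -0.28 (limma, adjusted p = 0.273 and 0.0873). Bmal2, the 3 Ror genes, Bhlhe41, Ciart, Hlf, Fbxl21 and Fbxw11 were not tested.

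A second list held 18 genes known as clock outputs, among them sodium transport genes of the kidney. Of 15 tested, 2 were called higher and 3 lower, with a median of -0.05. Over all genes 37.5% were called, so the count is not a result about the clock outputs. In the methods' test none of the 15 had an unadjusted p under 0.05 on ratios and 5 had on channels. Cdkn1a, a cell cycle inhibitor under REV-ERB control, fell by the largest amount, with ratios of -1.52, -0.60 and -0.98 (limma, adjusted p = 0.00610). Its other probe past the filter had a mean of -0.51, and the mean of its 2 probes was -0.77 (limma, adjusted p = 0.00471). With no normalization between the dyes the ratio of its brightest probe was 0.10, at -0.52 from the all-gene median. Usp2, a deubiquitinase with a strong daily rhythm in many tissues, gave -0.78, -0.19 and -0.48 (limma, adjusted p = 0.0216). Alas1, the first enzyme of heme synthesis, gave -0.53, -0.39 and -0.16 (limma, adjusted p = 0.0234). Both turned above 0 with median centring, to 0.13 and 0.39, at -0.14 and 0.12 from the all-gene median. Klf15, a factor of amino acid metabolism, rose with 0.23, 0.37 and 0.54 (limma, adjusted p = 0.0157) and was above 0 in every setting. Cdkn1a kept its call whichever array was left out but lost it with median centring, at -0.25 (limma, adjusted p = 0.126). Usp2 and Klf15 lost the call without array 3, at -0.49 and 0.30 (limma, adjusted p = 0.117 and 0.122). Alas1 lost it whichever array was left out, at -0.46 to -0.27 (0.0532 to 0.0783). With the deposited log ratio Usp2 and Alas1 lost it too (limma, adjusted p = 0.0576 and 0.0825), and Alas1 with a normexp offset of 0 (0.0617).

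Cues that can set peripheral clocks were looked at through their own target genes. Of 8 temperature responsive genes, 5 were tested, each by its brightest probe. None was called in limma's test, and none had an unadjusted p under 0.05 there or in either form of the methods' test. Their median was 0.02, and 0.05 with the mean over probes. The 3 probes of Hsp90aa1 past the filter had means from -0.22, the value used, to 0.51. Of 12 glucocorticoid responsive genes, 10 were tested, 2 were called higher and 1 lower, against 11.5% and 25.9% of all genes, and the median was 0.22, on single arrays 0.27, 0.20 and 0.02. In the methods' test 0 of the 10 had an unadjusted p under 0.05 on ratios and 1 had on channels. Errfi1, a feedback inhibitor of the EGF receptor, fell with -0.52, -1.05 and -1.42 (limma, adjusted p = 0.00657). Its ratio with no normalization, 0.05, was at -0.57 from the all-gene median. With median centring Errfi1 was at -0.30 and was not called (limma, adjusted p = 0.389). Sgk1, the aldosterone-induced kinase that raises sodium uptake and a member of the output list too, gave 0.42, 0.59 and 0.05 (limma, adjusted p = 0.0480). Mt2A, a metallothionein, gave 0.44, 0.17 and 0.33 (limma, adjusted p = 0.0237). Sgk1 was not called without array 1 or 2, at 0.32 and 0.24 (limma, adjusted p = 0.109 and 0.163). Nor was Mt2A called without array 1 or 3, at 0.25 and 0.30 (limma, adjusted p = 0.0901 and 0.143). With a normexp offset of 0 or the deposited log ratio both lost their calls (adjusted p = 0.0624 and 0.0808 for Sgk1, 0.0529 and 0.0672 for Mt2A). Sgk1 lost it too where both colours had to pass (0.0535) or without the replicate block (0.0565), and Mt2A with the mean of its probes (0.25, adjusted p = 0.0598).

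The 5 named genes with the pattern most like the brightest Dbp probe over the 3 arrays, outside the lists, were Fxyd1, Junb, Hspb2, Foxa2 and Ubox5. Their distances from it were 0.0394 to 0.0641 log2 units, and 7 genes of any name lay within that range. Foxa2 was not tested where both colours had to pass the filter. Fxyd1, the nearest, had ratios of -0.32, -0.56 and -0.48. With median centring Junb and Hspb2 had ratios above 0, at 0.22 and 0.17, which was -0.05 and -0.10 from the all-gene median. Likeness over 3 arrays says little where 3678 genes were called lower.

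The tissue label was checked against cell type markers. Over all genes 11.5% were called higher and 25.9% lower, and the counts of these short lists are a description only. For each list the gene with the brightest probe, averaged over both colours, is named, which is no measure of relative level. Kidney markers were plainly present, with all 8 proximal tubule and all 5 thick ascending limb genes tested and Slc34a1 and Umod as the brightest of each. Of the proximal tubule genes 3 were called higher, Cubn the most, at 0.45, while 3 of the 8 ratios were below 0. Of the thick ascending limb genes 2 were called higher, with Umod at 0.87, while 1 of the 5 ratios was below 0. Intercalated cells (4 tested) had 1 higher and 1 lower, with Slc4a1 both the brightest and the lower one at -0.68. Of the 4 ratios, 3 were above 0. With no normalization Slc4a1 was 0.34, at -0.28 from the all-gene median. The endothelial list (4 tested, Kdr the brightest) had 1 called lower, Pecam1 at -0.56. Kdr was at 0.04, and 2 of the 4 ratios were above 0. With median centring Pecam1 was 0.14, at -0.13 from the all-gene median. The stromal list (5 tested, Col3a1 the brightest) had 1 called higher, Dcn at 1.09. Col3a1 was at 0.05, and 1 of the 5 ratios was below 0. In the lists for distal convoluted tubule, principal cells, leukocytes, skeletal muscle and cerebrum, 11 genes were tested and none was called by limma, where 4 had an unadjusted p under 0.05, against 0 and 1 in the methods' test on ratios and on channels. Aqp2 was the brightest of the principal cell list and Cd68 of the leukocyte list, and Slc12a3, Myl11 and Mbp were the only genes tested in theirs. Adrenal markers (2 of 7 tested, Hsd3b1 the brightest) had 1 called lower, Cyp17a1, which was well above background on 3 arrays in control RNA but on 1 in G200 RNA and so passed the filter only through the group in which it was higher. The adipose markers (3 of 5 tested, Adipoq the brightest) had 1 called lower, Cfd at -0.79. Adipoq was at -0.06, and all 3 ratios were below 0. Cyp17a1 lost its call whichever array was left out (adjusted p = 0.0665 to 0.120), Cubn without array 1 or 3 (0.0663 and 0.192) and Cfd without array 3 (0.137).

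Liver markers moved far more than any clock gene. Of 16 listed, 14 were tested and all 14 were called lower in G200, with a median of -2.85 and medians of -1.49, -3.01 and -4.28 on arrays 1, 2 and 3. Their summed normalized intensity was 169750, 198700 and 209100 in control RNA and 48995, 19973 and 7669 in G200 RNA. Tf had the brightest probe of the 14 averaged over both colours, though not in control RNA, with a ratio of -2.53, and Apoc1 had the largest ratio in size, at -4.05. In the methods' test on ratios 1 of the 14 had an unadjusted p under 0.05, and on channels 2. Under a robust variance model in limma Tf and Apoc1 missed the threshold (adjusted p = 0.0519 and 0.0642). Tat and Cps1 did not pass the filter. On the same arrays the brightest Dbp probe gave -0.36, -0.56 and -0.49, Bmal1 0.37, 0.17 and 0.34, and Tef 0.28, 0.39 and 0.30. The clock genes are expressed in liver too, and the part of the liver markers in their ratios was not tested. From which cells or which tissue the RNA of the liver markers came was not tested. In a whole tissue, fewer cells of a type and less RNA per cell cannot be told apart.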

How the data were processed

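Kidney RNA of control (Cy3) and G200 (Cy5) rats was hybridized by the authors to 3 Agilent arrays. The authors deposited Feature Extraction tables (11.5.1.1 in the headers, 9.3.2.1 in the submitters' notes) with uncorrected median spot and background intensity. A deposited log10 ratio, background subtracted and dye normalized, served as an alternative only.

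Signals were corrected with limma 3.58.1 in R 4.3.3 (normexp, offset 50) and scaled between dyes by loess on each array, with control spots and spots marked as outliers (635, 736 and 945) left out and replicate spots averaged. RefSeq symbols were found for 18355 of 30367 probes (60.4%), and the brightest probe past the filter stood for a gene. Mean log2 ratios were tested two-sided against 0 (lmFit, eBayes, Benjamini-Hochberg over 14183 genes), with the green channels counted as 1 control RNA. The p-values measure only the spread between arrays. Levels per colour were scaled with Aquantile. Of the spots, 59.8%, 62.7% and 62.3% exceeded background clearly in green and 63.0%, 56.6% and 61.0% in red. The number of arrays limits the precision.

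Named genes were all members, up to 4 called genes of each of the 4 pathway lists by size, the brightest and the most changed called gene of each cell type list described, and the 5 genes nearest to the called member with the largest ratio. Hsp90aa1 was named for the range over its probes. The members and lists were chosen with earlier results of these data known. The steps were tested on simulated data. Alternatives covered background, dye scaling, filter, outlier marks, probe choice, variance model, the methods' t-test, the replicate block and leaving out each array. Reading members by separate probes, or by all probes averaged (dim ones included), was chosen after seeing the data.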

Additional observations from a re-analysis of the deposited data

How the results depend on the processing

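The gap between the arms, -0.19 as reported, was -0.30 with a normexp offset of 0, -0.34 with the deposited log ratio, -0.091 with median centring, -0.091 with no normalization between the dyes (equal by construction), -0.13 with no filter and 0.012 with the mean over probes. Chosen after seeing the data, it was -0.047 and -0.058 with the other Dbp probes and 0.031 with the other Bmal1 probe. With all probes of the 10 members, of which 9 of 16 passed the filter, it was 0.0097, which does not measure the gap. The other Bmal1 probe was not well above background in G200 RNA on array 2. Results with it or with the mean over probes, here and below, carry that limit.

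Genes called higher and lower numbered 4990 and 1246 with median centring, 8010 and 304 with no normalization, 0 and 2 with the methods' t-test on ratios, and 63 and 290 with that test on channels. Without the replicate block 1035 were called higher. With the methods' t-test on ratios 4475 genes had an unadjusted p under 0.05, and on channels 4211, against 6964 in limma. The calls of members, higher and lower, are given after adjustment. Members called higher numbered 1 with the mean over probes, 0 with either form of the methods' t-test, 1 without the replicate block and 1 with the other Bmal1 probe. Without adjustment, 3 members had a p under 0.05 in the methods' t-test on ratios and 2 on channels, against 3 in limma. The test on channels takes the green readings as separate control samples. Members called lower numbered 0 with median centring, no normalization, the mean over probes, the methods' t-test on ratios and either of the other Dbp probes.

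Directions turned as follows. With the deposited log ratio, Slc34a1 was 0.033, Adipoq 0.031 and Myl11 0.030. With median centring, Clock was 0.022, Cry1 0.16, Dbp 0.22, Usp2 0.13, Alas1 0.39, Slc34a1 0.76, Aqp2 0.56, Pecam1 0.14, Cd68 0.37, Adipoq 0.32, Myl11 0.29, Junb 0.22 and Hspb2 0.17. With no normalization, Clock was 0.37, Per3 0.12, Cry1 0.51, Dbp 0.57, Btrc 0.19, Npas2 0.069, Cdkn1a 0.10, Usp2 0.48, Alas1 0.74, Errfi1 0.054, Slc34a1 1.11, Aqp2 0.91, Slc4a1 0.34, Pecam1 0.49, Cd68 0.72, Adipoq 0.67, Myl11 0.64, Mbp 0.27, Fxyd1 0.18, Junb 0.57, Hspb2 0.52 and Ubox5 0.23. By its other probes Dbp was 0.11 and 0.066, and Bmal1 by its other probe -0.15.

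Leaving out 1 array at a time, genes called higher ranged from 167 to 1691 and lower from 1384 to 3396, members called higher from 0 to 2 and lower from 0 to 1, and the gap from -0.19 to -0.11. Cry1 ranged from -0.080 to 0.084, Slc12a3 from -0.10 to 0.61, Kdr from -0.12 to 0.14, Myl11 from -0.13 to 0.050, Slc34a1 from -0.14 to 0.049, Col3a1 from -0.11 to 0.21 and Adipoq from -0.16 to 0.078. The filter asks for signal on the arrays that are left, so 7 members were tested without array 1 and 9 without array 2, and these ranges include that change. The cause of the differences was not tested.

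Of the values of single genes under these alternatives, 454 kept direction and side of the threshold, 116 kept direction but lost the call, 11 gained a call and 48 turned. Median centring gave 13 of these turns and leaving the dyes as they were gave 22. The latter differs from median centring only by a shift of all genes alike. Median centring itself differs from loess between genes. Of the medians of lists and of all genes and the counts of members tested, 65 moved by less than the spread used and 19 by more. Of the counts of genes and members called and the gap, 46 stayed within their limits and 37 moved. All arrays lay on 1 slide, so a slide block was not run. Per1, Per2, Nr1d1 and Nr1d2 are limited by signal over background.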
